A study of Saccharomyces cerevisiae with 6 samples.

Results

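SNAREs are the membrane proteins that bring a transport vesicle and its target membrane together, and 30 yeast genes for SNAREs and their regulators were followed here on arrays of cells that make an active or an inactive mammalian lipid kinase. The 30 genes were taken by name, as the SNAREs of each transport step, the SM (Sec1/Munc18) proteins and the disassembly factors SEC17 and SEC18, out of 5449 genes named on the array. Of the 30, 9 encode SNAREs of endosomes and the vacuole, 9 SNAREs that act between the ER and the Golgi or within the Golgi, 6 SNAREs of the plasma membrane and 6 the regulators. Each of the 30 was represented by 1 probe set, none of them of the kind marked as sharing probes with other sequences, and all 30 passed the filter on low values.

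In the tested cultures, called PI3K, Saccharomyces cerevisiae BY4741 carried p110α-CAAX, the catalytic part of a mammalian phosphoinositide 3-kinase with a C-terminal motif that sends proteins to membranes, under a galactose-inducible promoter. The control cultures, called KD, were of the same strain and carried the kinase-dead form of that protein, p110α-CAAX K802R, under the same kind of promoter. All cultures were pre-grown in raffinose medium and given 2% galactose for 4 h at 30 °C, and 3 biological replicates of each group were profiled on 1 Affymetrix array each. Cultures without a transgene were not analysed here, so what both groups share is not seen in this comparison.

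A SNARE complex is a bundle of 4 helices, named Qa, Qb, Qc and R, most of which are anchored in the 2 membranes that fuse. SM proteins bind and guide particular SNARE bundles, and Sec17 recruits the ATPase Sec18 to pull used bundles apart so that the SNAREs can act again. In yeast, the endosome and vacuole steps are linked to phosphoinositides through the lipid made by the yeast PI 3-kinase Vps34, which is bound by the PX domain of Vam7. The lipid that mammalian p110α makes from the phosphoinositide of the plasma membrane is a different one.

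Values are log2 array summaries with array medians between 9.49 and 9.54, and the number of arrays limits their precision. After the group means were removed, the first principal component over the 5350 genes tested held 70.4% of the remaining variance, and it separated 3 arrays, PI3K 1 with PI3K 3 and KD 3 (side A), from the remaining 3, PI3K 2 with KD 1 and KD 2 (side B). No batch is named in the labels, and this split comes from the values themselves. The differences between the groups are therefore also given within each side, where KD is represented by a single array on side A and PI3K by a single array on side B. KD 3 gave the lowest value for 13 of the 30 genes and PI3K 2 the highest for 16. The same counts were not made over all genes, so they are not read as a trait of the 30. URA3 lay between 3.11 and 3.51 and MET17 between 3.57 and 4.03 on the 6 arrays, where the lowest value of any probe set was 2.49; both genes are deleted in BY4741. LEU2, also deleted in that strain, lay between 12.14 and 12.65, and HIS3, partly deleted there, between 10.96 and 11.23. The labels name no plasmid marker. Genes of a cells, the mating type of BY4741, ran from 10.23 (STE6) to 12.85 (MFA2). The α-pheromone genes MF(ALPHA)1 and MF(ALPHA)2 lay between 4.32 and 5.86. The other genes of the α-cell list were SAG1, between 8.15 and 8.60, and STE3, between 6.80 and 8.09. STE3 was higher in PI3K with the groups apart, as were 10.2% of all genes (difference 0.85, limma adjusted p = 0.145). With the array side as a covariate its limma adjusted p was 0.0249, in a fit that called 3.46% of all genes. The sides come from the same values, so that p understates the error to an unknown extent.

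Setting PI3K against KD is meant to separate the response to kinase activity from the response to making the protein. It does so only if both forms are made at the same level, which was not looked at here. None of the 30 genes reached the 0.05 threshold for the limma adjusted p over all 5350 genes tested, where 13 genes, or 0.243%, passed. The smallest adjusted p among the 30 was 0.126. At an unadjusted p under 0.05 there were 5 of the 30, or 16.7%, against 14.5% of all genes: PEP12, NYV1, VTI1, USE1 and SEC17. Each of the 5 was higher in PI3K, as were 7.94% of all genes. No overlap between the 3 PI3K and the 3 KD values was seen for 7 of the 30 genes, or 23.3%, against 20.7% of all genes. Of these 7, 6 were higher in PI3K (10.2% of all genes) and 1, SLY1, was lower (10.5% of all genes). Over both directions together, the shares of 16.7% and 23.3% are near those of all genes, while for genes higher in PI3K alone they are above them; the genes were chosen with earlier results known, and neither gap was tested.

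**Figure D1:**
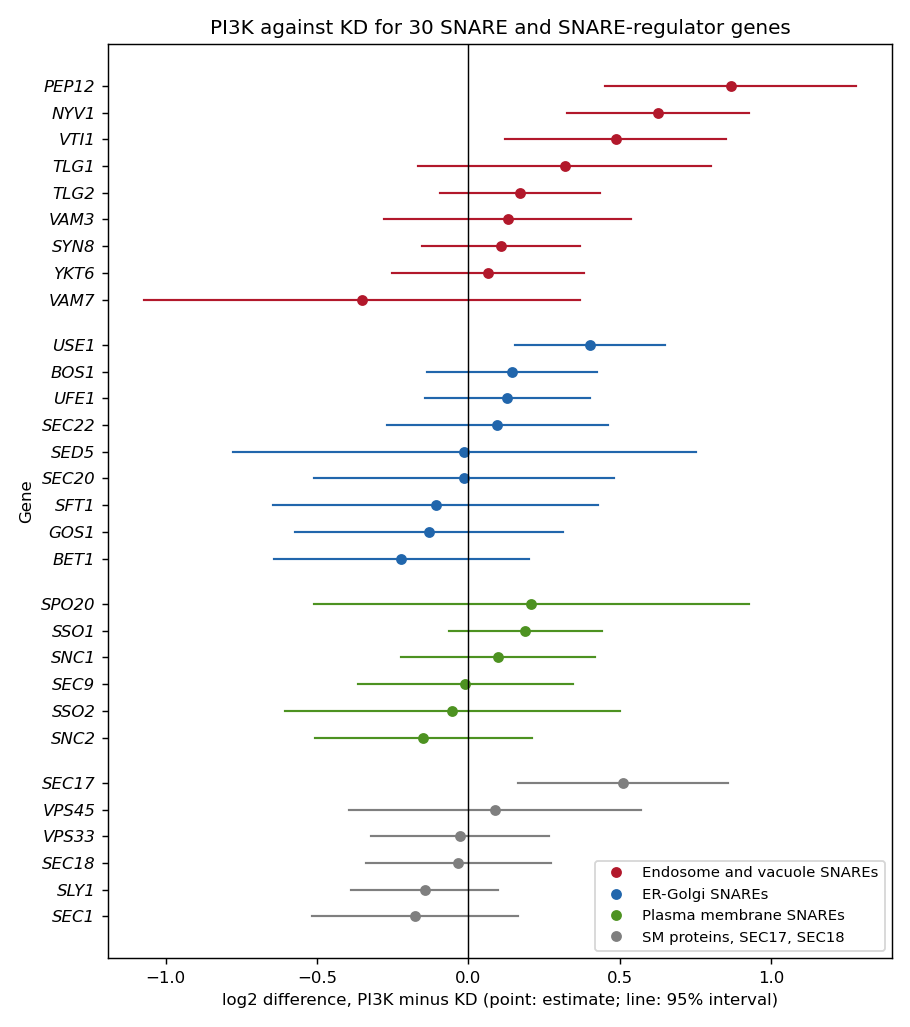
The log2 difference of PI3K minus KD is plotted for each of the 30 genes as a point with its 95% interval from limma, grouped by transport step. The intervals of PEP12, NYV1, VTI1, USE1 and SEC17 lie above 0, and the other 25 include 0; none of the 30 passed after adjustment over all genes.

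The largest difference among the 30 was that of PEP12, the Qa-SNARE of the late endosome. PEP12 had log2 values of 9.70, 9.99 and 9.61 in the PI3K cultures, against 9.11, 9.00 and 8.59 in the KD cultures. All PI3K values were above all KD values, and KD 3 was the lowest. The difference of 0.87 on the log2 scale (SE 0.18, 95% interval 0.45 to 1.28) is 1.82-fold and did not pass over all genes (limma adjusted p = 0.126). It was 1.06 on side A and 0.94 on side B.

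NYV1 encodes the R-SNARE of the vacuole, which pairs with the Q-SNAREs Vam3, Vti1 and Vam7 in vacuole fusion. Its values were 10.87, 10.98 and 10.86 in PI3K, against 10.08, 10.37 and 10.40 in KD, with no overlap and with KD 1 the lowest. The difference was 0.62 (SE 0.13, 95% interval 0.32 to 0.93), a 1.54-fold change that did not pass (adjusted p = 0.126). On sides A and B it was 0.47 and 0.76.

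VTI1, the Qb-SNARE that serves the endosome, vacuole and Golgi, had values of 10.38, 10.81 and 10.50 in PI3K, against 10.23, 10.09 and 9.91 in KD. The groups did not overlap, but PI3K 1 lay only a little above KD 1. Its difference was 0.49 (SE 0.15, 95% interval 0.12 to 0.85, adjusted p = 0.234), with 0.53 on side A and 0.65 on side B. PEP12, NYV1 and VTI1 thus had the 3 largest differences among the 9 endosome and vacuole SNAREs.

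The other 6 SNAREs of these steps lay closer to 0, with a median difference of 0.12. TLG1, a Qc-SNARE of the trans-Golgi and early endosome, had values of 10.31, 10.79 and 10.45 in PI3K, against 10.39, 10.38 and 9.81 in KD. The groups overlapped, and KD 3 was low (difference 0.32, SE 0.20, adjusted p = 0.560). Without KD 3 the difference in TLG1 was 0.13, and without PI3K 2 it was 0.18. Its partner TLG2, the Qa-SNARE of the same compartments, stood at 0.17 (SE 0.11), and the endosomal Qc-SNARE gene SYN8 at 0.11 (SE 0.11).

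VAM3, the vacuolar Qa-SNARE, had a difference of 0.13 (SE 0.17), which was -0.09 on side A and 0.45 on side B. YKT6, a lipid-anchored R-SNARE that acts in the Golgi, at endosomes and at the vacuole, had one of 0.07 (SE 0.13), which was -0.03 without KD 3. VAM7 was the member of the 9 with a negative difference. This Qc-SNARE has no membrane anchor and reaches the vacuole through its PX domain. Its values of 6.75, 7.36 and 6.45 in PI3K, against 6.70, 7.63 and 7.28 in KD, overlapped, and the difference was -0.35 (SE 0.30, 95% interval -1.07 to 0.37, adjusted p = 0.678). It was -0.68 on side A and 0.20 on side B, -0.61 without PI3K 2 and -0.14 without KD 2. The 4 partners of the vacuolar bundle therefore spanned differences of -0.35 to 0.62, while the 3 endosomal partners Pep12, Vti1 and Syn8 spanned 0.11 to 0.87.

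**Figure D2:**
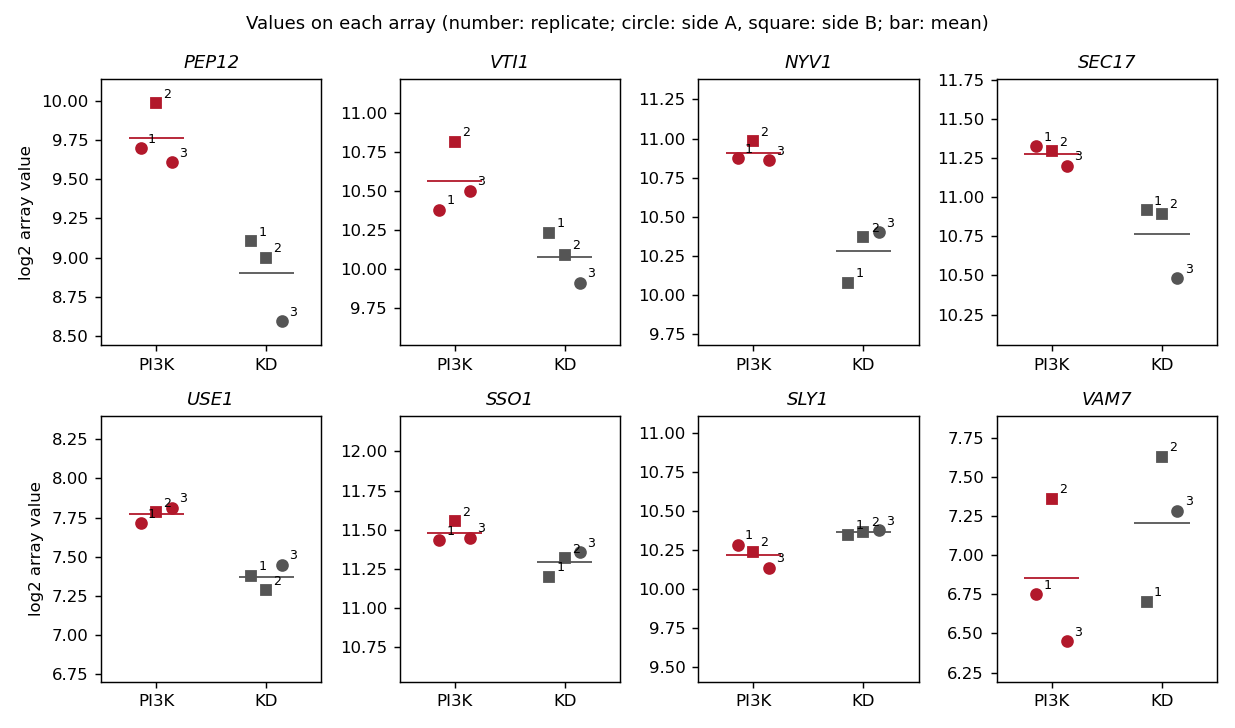
Log2 values on each array are plotted for the 7 genes whose groups did not overlap and for VAM7, with PI3K on the left and KD on the right of each panel; all panels span the same log2 height, bars are group means, numbers are replicates and shapes mark the array side. PEP12, NYV1, VTI1, SEC17, USE1 and SSO1 are higher in PI3K, SLY1 is lower, and the VAM7 groups overlap.

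Among the 9 ER-Golgi SNAREs, 4 had a positive and 5 a negative difference, with a median of -0.01, and none passed. USE1, a Qc-SNARE of the retrograde path from the Golgi to the ER, was the one with an unadjusted p under 0.05. It had values of 7.72, 7.78 and 7.81 in PI3K, against 7.38, 7.28 and 7.45 in KD. The replicates of each group lay close together and the groups did not overlap (difference 0.40, SE 0.10, 95% interval 0.15 to 0.65, adjusted p = 0.184). On sides A and B it was 0.32 and 0.45.

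The partners of Use1 in the bundle for the path from the Golgi to the ER had smaller estimated differences. UFE1, the Qa-SNARE of the ER, stood at 0.13 (SE 0.11), SEC20, the Qb-SNARE, at -0.02 (SE 0.21), and SEC22, the R-SNARE used in both directions, at 0.10 (SE 0.15). The sign of SEC20 changed without KD 3 (0.11), without PI3K 2 (0.15) and without PI3K 3 (0.02), and that of SEC22 without PI3K 2, where it was -0.00432. Whether USE1 differs from them in its response was not tested.

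For traffic from the ER to the Golgi, BOS1, the Qb-SNARE, had a difference of 0.14 (SE 0.12) and BET1, the Qc-SNARE, one of -0.22 (SE 0.18). Without PI3K 2, BOS1 stood at 0.07 and BET1 at -0.37, and without KD 1 BET1 stood at -0.11. SED5, the Qa-SNARE of the Golgi, was the least certain of the 9, with values of 8.60, 8.04 and 8.37 in PI3K, against 7.95, 8.00 and 9.10 in KD. KD 3 stood above all the other arrays, so that the difference of -0.01 (SE 0.32) became 0.36 without it. Without PI3K 2 it was 0.13. Within the Golgi, GOS1, a Qb-SNARE, stood at -0.13 (SE 0.19) and SFT1, a Qc-SNARE, at -0.11 (SE 0.23). GOS1 changed sign without PI3K 3 (0.02) and SFT1 without KD 1 (0.06).

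The 6 plasma membrane SNAREs had a median difference of 0.04, 3 above and 3 below 0, and the smallest adjusted p among them was 0.493. SSO1, which encodes a Qa-SNARE of exocytosis, had values of 11.43, 11.55 and 11.45 in PI3K, against 11.20, 11.32 and 11.36 in KD. These groups did not overlap, by a narrow margin between PI3K 1 and KD 3 (difference 0.19, SE 0.11, 95% interval -0.06 to 0.44). Its paralog SSO2 varied more between arrays, with values of 9.12, 9.66 and 8.86 in PI3K, against 9.00, 9.28 and 9.52 in KD. SSO2 had a difference of -0.05 (SE 0.23), which was -0.53 on side A and 0.52 on side B.

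The paralogs SNC1 and SNC2, R-SNAREs of secretory vesicles that are recycled through endosomes, had differences of 0.10 (SE 0.14) and -0.15 (SE 0.15). SEC9, which supplies both the Qb and the Qc helix at the plasma membrane, had one of -0.01 (SE 0.15). Its relative SPO20 takes that place at the prospore membrane in sporulating diploids. SPO20 had values of 5.13, 5.64 and 5.26 in PI3K, against 5.53, 5.42 and 4.44 in KD, and overlapped (difference 0.21, SE 0.30). KD 3 was the lowest, and without it the SPO20 difference was -0.14.

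Genes of sporulation, which a MATa haploid such as BY4741 does not undergo, were looked at beside SPO20. Of 7 genes of that list, 6 had a positive difference, the median was 0.30 and 4 (SPS1, SPR3, SPR28 and DIT1) were higher in PI3K with the groups apart, as were 10.2% of all genes. None of the 7 passed an adjusted p of 0.05 in limma. With the array side as a covariate SPR3 (limma adjusted p = 0.0249) and SPS1 (limma adjusted p = 0.0478) did, where 3.46% of all genes passed. Those p-values understate the error to an unknown extent, since the sides were found from the same values. Values of the 7 genes ran from 3.74 for SPR28 on KD 3 to 7.52 for NDT80 on PI3K 2. Their part in the SPO20 value was not tested.

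Among the regulators, SEC17, the α-SNAP of yeast, had the largest difference. Its values were 11.33, 11.30 and 11.20 in PI3K, against 10.92, 10.90 and 10.48 in KD, with no overlap and with KD 3 lowest. The difference was 0.51 (SE 0.15, 95% interval 0.16 to 0.86), or 1.42-fold, and did not pass over all genes (adjusted p = 0.209). It was 0.78 on side A and 0.39 on side B, and 0.37 without KD 3. SEC18, the ATPase that Sec17 recruits, had values of 10.79, 10.78 and 10.81 in PI3K, against 10.92, 10.95 and 10.60 in KD. The KD arrays lay on both sides of the PI3K arrays, and the difference was -0.03 (SE 0.13, 95% interval -0.34 to 0.27).

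The 4 SM protein genes showed small differences. SLY1, whose product works with Sed5 and Ufe1 on the ER-Golgi steps, had values of 10.28, 10.24 and 10.14 in PI3K, against 10.35, 10.37 and 10.38 in KD. All PI3K values were below all KD values, but the difference of -0.15 (SE 0.10, 95% interval -0.39 to 0.10) is a small one (adjusted p = 0.597). SEC1, the SM protein of exocytosis, stood at -0.18 (SE 0.14) with overlapping groups. VPS45, which acts with Tlg2, had a difference of 0.09 (SE 0.20), and VPS33, a subunit of the vacuole and endosome tethers, one of -0.03 (SE 0.12). The sign of VPS45 changed without KD 3 (-0.12). That of VPS33 changed without KD 1 (0.05) and without PI3K 3 (0.03), and that of SEC18 without KD 1 (0.02) and without KD 2 (0.03).

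By transport step, the endosome and vacuole SNAREs had a median difference of 0.17, with 8 of 9 above 0. This compares with -0.01 for ER-Golgi SNAREs, 0.04 for plasma membrane SNAREs, -0.03 for the regulators and -0.0018 for all 5350 genes, of which 2658 were above 0. The median of the endosome and vacuole SNAREs exceeded that of the other 15 SNAREs by 0.18. Relative to the KD mean of each gene, the gap between these medians was 0.16, 0.18 and 0.22 on the 3 PI3K arrays, against 0.05, 0.01 and 0.01 on the 3 KD arrays, which lie near 0 by construction. On sides A and B the gap was 0.16 and 0.22. It was 0.09 without KD 2, 0.09 without KD 3 and 0.11 without PI3K 1, and fitting the array side as a covariate gave 0.09. The median of the 9 genes alone was 0.29 without PI3K 3. These are descriptions, since the genes were chosen with earlier results of these arrays known, and no test was made of the gap.

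**Figure D3:**
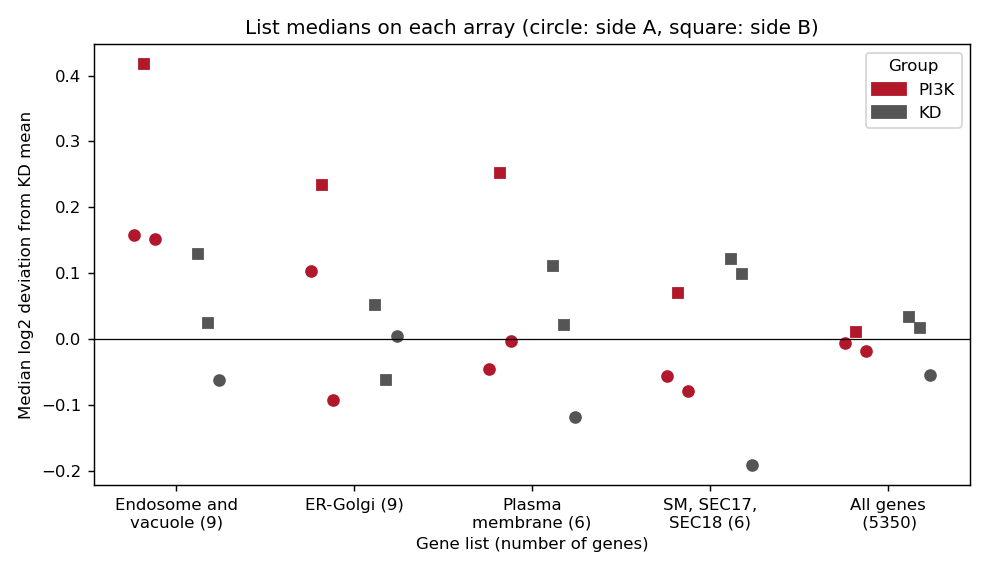
The median log2 deviation from each gene's KD mean is plotted for each array and each list of genes, with PI3K left of KD and the array side shown by the shape. PI3K 2 is highest in each of the 3 SNARE lists, at 0.42 for endosome and vacuole SNAREs, 0.23 for ER-Golgi SNAREs and 0.25 for plasma membrane SNAREs, against 0.01 for all genes.

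By place in the bundle rather than by membrane, the medians were 0.13 for the 7 Qa-SNAREs, 0.06 for the 4 Qb-SNAREs, 0.10 for the 5 R-SNAREs and -0.00046 for the 6 Qc-SNAREs. Each of these 4 types held 1 gene with an unadjusted p under 0.05, namely PEP12, VTI1, NYV1 and USE1, so the 4 did not come from 1 helix position.

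For pairs of genes that share a place or a task, the gap between their log2 values on each array was compared between the groups. Array-wide shifts common to both genes cancel in this gap. The split into array sides differs by gene and does not fully cancel: side B minus side A was -0.03 for NYV1 and 0.24 for YKT6. The size of a gap depends on the probes, so only its change is read. The SEC17 to SEC18 gap was 0.53, 0.52 and 0.39 in PI3K, against -0.01, -0.06 and -0.11 in KD. The groups lay apart and the change was 0.54. The gap between the Qa-SNARE genes PEP12 and VAM3 was 0.15, 0.18 and 0.41 in PI3K, against -0.35, -0.25 and -0.87 in KD, a change of 0.74. The gap between the R-SNARE genes NYV1 and YKT6, which can both serve vacuole fusion, changed by 0.56, and that of SNC1 and SNC2 by 0.25, each with the groups apart. The gaps of SSO1 and SSO2 (0.24) and of SPO20 and SEC9 (0.22) overlapped between the groups. An exact two-sided permutation test over the 6 arrays gave p = 0.1 for each of the 4 pairs that lay apart (0.15 after Benjamini-Hochberg adjustment over 6 pairs). With 3 arrays against 3, p = 0.1 is the smallest that this exact permutation test can give. Any pair with the groups apart gives it, so no pair could pass 0.05 and the test adds nothing to the groups lying apart. SEC17, PEP12 and NYV1 had groups apart on their own, so their pairs partly repeat those values. The pairs were chosen after their values were seen, and the share of all gene pairs lying apart was not counted.

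With the array side as a covariate, 5 of the 30 genes were under an adjusted p of 0.05 in limma, or 16.7%, against 3.46% of all genes (185 of 5350). All 5 were higher in PI3K, as were 2.65% of all genes. They were PEP12 (difference 1.00, adjusted p = 0.00968), VTI1 (0.59, adjusted p = 0.0367), NYV1 (0.61, adjusted p = 0.0478), SEC17 (0.58, adjusted p = 0.0485) and TLG1 (0.48, adjusted p = 0.0491). USE1 did not pass (0.38, adjusted p = 0.0705). In the same limma fit, 7 of the 30 genes had an unadjusted p under 0.05, against 25.6% of all genes (1367 of 5350). No excess among the 30 was seen at that threshold. The sides were found from the tested values, which narrows the residual spread by selection, so these p-values understate the error to an unknown extent. The difference between PI3K and KD had the same sign on both sides for 18 of the 30 genes, 15 of them positive and 3 negative, and for 3296 of all 5350 genes. How the 3296 split by direction was not counted.

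**Figure D4:**
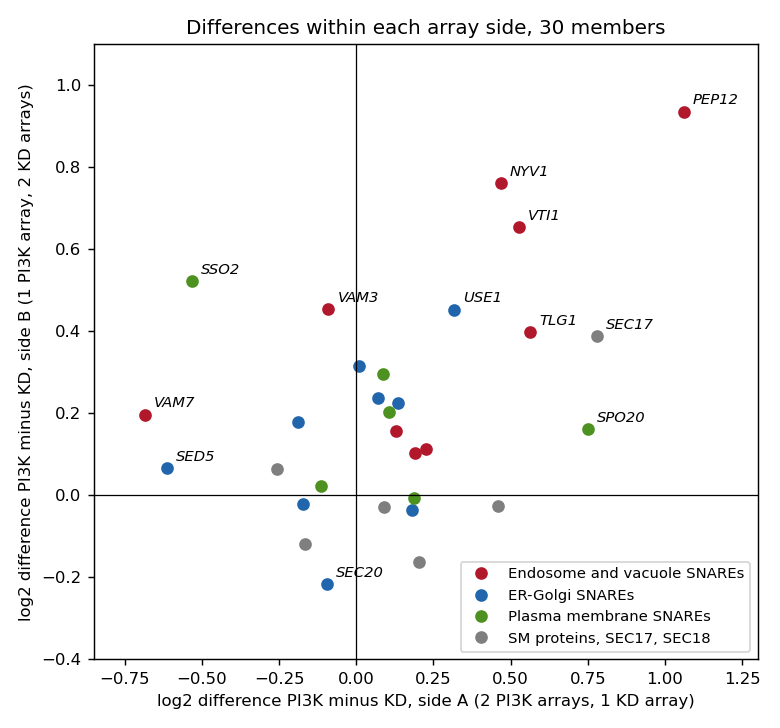
The log2 difference of PI3K minus KD on side B is plotted against that on side A for the 30 genes, each side resting on 3 arrays. PEP12 (1.06 in A, 0.94 in B), NYV1, VTI1, TLG1, SEC17 and USE1 are among the genes above 0 on both sides. VAM7, SED5, SSO2, VAM3, GOS1, SNC2 and SEC1 are below 0 on side A and above 0 on side B.

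Genes of the machinery around the SNAREs were set beside them: the tethers that catch a vesicle before its SNAREs engage, proteins that bind or modify SNAREs, and the GET pathway, which inserts tail-anchored proteins such as most SNAREs into the ER membrane. Of 33 such genes, none passed an adjusted p of 0.05, 16 were above 0 and 17 below, the median was -0.00430 and 2 (6.06%) had groups apart, against 20.7% of all genes. Both were lower in PI3K, as were 10.5% of all genes. In the HOPS and CORVET tethers of the vacuole and endosome, which include Vps33, the median over 7 genes was 0.05. Among them VPS8, of CORVET, had values of 8.54, 8.67 and 8.49 in PI3K, against 8.80, 8.88 and 8.80 in KD, all lower in PI3K (difference -0.26, SE 0.11, adjusted p = 0.329). VPS39, of HOPS, stood at -0.20. On side A, where KD 3 was low, the median of that list was 0.48, and on side B it was -0.16.

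The GARP tether of the trans-Golgi had a median of -0.12 over 4 genes (VPS53 -0.25, VPS54 -0.15), and the Dsl1 tether, which holds the ER SNAREs Use1 and Sec20, one of -0.03 over 3 genes (DSL1 -0.21, SEC39 -0.03). In the COG tether of the Golgi the median was -0.01 over 8 genes, with COG7 at 0.23 and COG4 at -0.19. Of the GET genes, 4 of 6 were above 0 with a median of 0.10, and GET3, the ATPase that carries the client, stood at 0.27 and GET4 at 0.30. Among 5 accessory genes, SRO77, a relative of SRO7, whose product binds Sec9, had values of 6.37, 6.39 and 6.24 in PI3K, against 6.97, 6.91 and 6.57 in KD, all lower in PI3K (difference -0.48, SE 0.14, adjusted p = 0.213). SRO7 itself stood at -0.07, and SWF1, which encodes a palmitoyltransferase for SNAREs, at 0.43 (SE 0.23) with overlapping groups.

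The precision of the arrays sets what can be said of the genes with small differences. The 95% interval lay within a 2-fold change in either direction for 28 of the 30 genes, PEP12 and VAM7 being the exceptions. A difference under 0.2 in size on the log2 scale, or 1.15-fold, was estimated for 21 of the 30. For each of these 21 the interval also includes larger sizes, such as -0.78 to 0.75 for SED5 and -0.61 to 0.50 for SSO2, so that a p above the threshold does not show that they did not differ. Each value is relative to the RNA of the whole culture, in which a change in every cell and a change in some cells cannot be told apart.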

How the data were processed

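Total RNA of 6 cultures was hybridised to 1-colour Affymetrix arrays, per the labels. The deposited values are GCRMA summaries, per the submitters' processing notes, which give no version, and are taken as log2 from their range; the log base is not given in the sources used here. Of 5716 probe sets 5498 named 1 gene and 218 none, by the platform annotation with symbols updated to R64; all 5498 identifiers matched. Genes with a value of at least 4 on at least 3 arrays were tested (5350 of 5449), using the probe set with the highest mean. PI3K was compared with KD in limma 3.58.1 (R 4.3.3; lmFit and eBayes without a block, two-sided), with Benjamini-Hochberg adjustment over all 5350 genes calling those under 0.05. The residual had 4 degrees of freedom and the eBayes prior 2.97. Differences are log2, PI3K minus KD.

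The 30 genes, the lists, their grouping and the alternatives were chosen with earlier results of these data known. All 30 genes are named; of each list of the surrounding machinery, called genes and those with the 2 smallest p-values are, and SRO7 besides. Of 84 symbols in the lists, 84 were on the array, 3 of them under another current symbol (VPS11, VPS18 and VPS39). Same-numbered arrays correlated at -0.49, 0.48 and 0.39 in their deviations from the group means, so the numbers were not taken to pair them. The settings tried are given with their effects in the closing section. No gene sequence was used here. Pairs were tested in scipy 1.17.1, and figures drawn with matplotlib 3.10.9 in Python 3.11.15.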

Additional observations from a re-analysis of the deposited data

How the results depend on the processing

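PEP12, NYV1, VTI1, USE1 and SEC17 kept a positive difference and an unadjusted p under 0.05 in each of the 16 fits run. They were named for an unadjusted p under 0.05 in the main fit, and all fits reuse the same 6 arrays. Agreement between fits is therefore partly built in. Of all genes, 8.21% (without PI3K 1) to 58.7% (array weights) were under 0.05 in a fit, and how many were in every fit was not counted. Over all 30 genes, 398 of 449 values under other settings kept their direction and side of the threshold, 33 changed sign and 21 came to pass, 3 of them with a changed sign. The difference of a member stays the same by construction with no filter, a filter at 6 or averaged probe sets. The same holds for trend and robust variances and for the replicate block, so no sign could change in those fits. Leaving out 1 array gave 0 called members each time and 0 to 6 called genes of all, 8 to 12 members with the groups apart (12, or 40%, without PI3K 2, against 36.7% of all genes; 10, or 33.3%, without KD 3, against 42.5%; 24.5% to 27.2% of all genes in the other 4), and median differences of 0.12 to 0.29 for endosome and vacuole SNAREs, -0.06 to 0.11 for ER-Golgi SNAREs, -0.04 to 0.12 for plasma membrane SNAREs, -0.13 to 0.03 for the regulators and a gap of 0.088 to 0.18. Sign changes there concerned GOS1 (-0.32 to 0.020), SEC18 (-0.15 to 0.032), SEC20 (-0.22 to 0.15), SEC22 (-0.00432 to 0.20), SEC9 (-0.14 to 0.083), SED5 (-0.21 to 0.36), SFT1 (-0.33 to 0.056), SPO20 (-0.14 to 0.41), SSO2 (-0.28 to 0.13), VAM3 (-0.015 to 0.29), VPS33 (-0.11 to 0.045), VPS45 (-0.12 to 0.20) and YKT6 (-0.030 to 0.15). A further 9 genes moved by over 1.5 times with no change of sign: BET1 (-0.37 to -0.11), BOS1 (0.07 to 0.18), SEC1 (-0.31 to -0.08), SNC1 (0.03 to 0.20), SNC2 (-0.27 to -0.07), SYN8 (0.07 to 0.17), TLG1 (0.13 to 0.42), UFE1 (0.07 to 0.18) and VAM7 (-0.61 to -0.14). With the array side as a covariate, 185 genes and 5 members passed, the gap was 0.093, and SEC18 (0.020), SEC9 (0.090), SFT1 (0.073) and VPS33 (0.030) turned positive. Within side A the regulators had a median of 0.15. Within side B the median was 0.40 for endosome and vacuole SNAREs and 0.18 for ER-Golgi SNAREs, and the gap 0.22. Array weights let 2808 of 5350 genes and 16 of 30 members pass, so members passed at about the share of all genes. The weights were 5.02 for PI3K 1 and 5.75 for KD 2 but 0.154 for KD 3, and their estimation stopped before it converged. The medians were then 0.12 for ER-Golgi and -0.18 for plasma membrane SNAREs, and SEC20 (0.40), SED5 (0.53), SPO20 (-0.25), TLG1 (-0.022), VPS45 (-0.27) and YKT6 (-0.018) changed sign, while VAM7 was at -0.75 (limma adjusted p = 0.0160). Quantile normalisation gave a gap of 0.15. The replicate block gave 40 called genes and 0 called members. No filter, median-centring, trend and robust variances and averaging the probe sets of a gene changed no call of the 30 genes, nor did a filter at 6 for the 29 it left (without SPO20). Each of the 30 has 1 probe set and passes the main filter, so averaging or dropping the filter could not alter its values. Those settings could act on the 30 only through the eBayes prior and the adjustment over all genes. Leaving VTI1, YKT6 and SPO20 out of the lists left the endosome and vacuole median at 0.17 and the gap at 0.18, with the plasma membrane median at -0.01. The cause of the other changes was not tested.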
